A study of Mus musculus with 6 samples.

Results

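mmu-miR-99a-5p, mmu-miR-100-5p, mmu-miR-125b-5p and the 2 minor arms of the miR-125b hairpins, mmu-miR-125b-1-3p and mmu-miR-125b-2-3p (written without mmu-, for mouse, from here on), were followed in mouse embryonic stem cells by sequencing of 6 small RNA libraries. They are 5 of the 1899 mature miRNA entries counted, taken by their full mature names, and none of them is a merged entry. The cells were of the 129/Ola strain, either wild type (WT) or with Wt1, the gene of a zinc finger transcription factor of kidney and gonad development, knocked out (KO). Each genotype was sequenced untreated and with retinoic acid (RA), and Wt1 KO also after Wt1 had been induced with doxycycline (dox) for 12 h or for 24 h, which gives 6 groups of 1 library. RA, a vitamin A derivative that makes stem cells differentiate, was used at 1 µM (read from the labels' µm) and dox at 1 µg/ml. The growth protocol, the same for every sample, names gelatin, serum and LIF, the cytokine that sustains self-renewal, and does not say whether LIF stayed during RA. How long RA was given, which clone carried the inducible gene and whether untreated Wt1 KO is its parent line is not stated in the labels, and a dox-treated library without the inducible gene is not analysed here.

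miRNAs are short RNAs cut from hairpin precursors. They guide silencing complexes to messenger RNAs that pair with the seed, bases 2 to 8 of the miRNA. The miR-99/100 family is conserved across animals and is known for restraining mTOR and insulin-like growth factor signalling. miR-125 is the vertebrate counterpart of the worm timing RNA lin-4, and with let-7 it represses Lin28, an RNA-binding protein of stem cells that holds let-7 back. In mammals miR-99/100, let-7 and miR-125 genes lie together in paralogous clusters, and these miRNAs are known to accumulate as pluripotent cells differentiate.

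The sequences show which reads can be told apart. They are given from RefSeq (GRCm38.p6), with the seed in capitals, and all 5 members matched RefSeq by name and were identical to the sequence in the deposited tables (written there with T). The other members of the seed families that had enough reads are shown beside them.
miR-99a-5p: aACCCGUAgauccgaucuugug
miR-100-5p: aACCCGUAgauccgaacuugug
miR-99b-5p: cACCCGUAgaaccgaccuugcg
miR-125b-5p: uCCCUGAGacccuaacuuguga
miR-125a-5p: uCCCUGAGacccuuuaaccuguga
miR-351-5p: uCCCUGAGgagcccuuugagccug
miR-125b-1-3p: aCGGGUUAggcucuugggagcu
miR-125b-2-3p: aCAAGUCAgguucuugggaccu

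miR-99a-5p and miR-100-5p shared the seed ACCCGUA with miR-99b-5p, and differed from each other at 1 base of 22, U16A counted from the 5′ end with miR-99a-5p first. Each differed from miR-99b-5p at 4 bases. miR-125b-5p shared the seed CCCUGAG with miR-125a-5p and miR-351-5p. No read of the 5 members was entered as matching several entries in any library. The labels do not state how many mismatches the counting allowed, so reads of miR-99a-5p and miR-100-5p could still have been exchanged through errors at that base.

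The members come from 2 loci. Mir99a (mature arm at chr16:77598940-77598961, plus strand) lies in an intron of the non-coding host gene Mir99ahg and, on the other strand, of Gm11146. The same host gene holds Mir125b-2 (3p arm at chr16:77646318-77646339) in an intron 47.3 kb downstream, according to GENCODE vM21 on GRCm38, and the last bases of that hairpin overlap C130023A14Rik. Mir100 (mature arm at chr9:41531437-41531458, plus strand) lies in an intron of 3110039I08Rik, the host gene that RefSeq calls Mir100hg. It also lies in an intron of the lincRNA Gm49317 on the same strand, and overlaps an exon of the antisense lincRNA Gm48742. Mir125b-1 (3p arm at chr9:41581980-41582001) lies 50.4 kb downstream of Mir100, in introns of 3110039I08Rik and Gm49317 and inside an exon of the sense intronic transcript Gm28119. Both loci also hold a let-7 hairpin between the 2 others, Mirlet7c-1 on chromosome 16 and Mirlet7a-2 on chromosome 9. Mature miR-125b-5p is the same from either hairpin, so its reads cannot be assigned to a locus, while each 3p arm belongs to 1 hairpin. The 3p arms differed from each other at 5 of 22 bases. The hairpins below, with both mature arms in capitals, show how the guide arm and the locus-specific 3p arm are placed.
Mir99a: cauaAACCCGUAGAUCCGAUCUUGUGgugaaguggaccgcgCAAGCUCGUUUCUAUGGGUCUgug
Mir100: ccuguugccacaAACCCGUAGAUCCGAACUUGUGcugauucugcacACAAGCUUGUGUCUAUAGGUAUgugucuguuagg
Mir125b-1: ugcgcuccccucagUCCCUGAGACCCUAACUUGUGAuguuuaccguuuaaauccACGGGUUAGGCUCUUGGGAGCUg

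Depth set what could be seen. Libraries held between 83626 (Wt1 KO with RA) and 6106104 (WT with RA) uniquely matched reads, and a count of 3, the limit that a count of 0 allows, corresponded to between 0.448 and 27.8 normalised CPM. This unit is the read count relative to library size, after the libraries were scaled with TMM (trimmed mean of M values). Intervals in brackets are 95% exact intervals and cover counting error only, because each group has 1 library. Amplified reads without molecular identifiers are not independent molecules, so the intervals can be too narrow even for counting error. Differences between groups have no replicate check, so each statement is about these libraries. The miR-290 cluster, the defining miRNA cluster of mouse embryonic stem cells, took 16.04% to 23.4% of the reads where RA was not given. With RA its share was 0.751% in WT but 9.40% in Wt1 KO. Bulk RNA cannot tell apart fewer cells with a miRNA and less of it per cell.

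miR-99a-5p was almost absent from the 4 libraries without RA and present in both with RA. Untreated WT had 4 reads and untreated Wt1 KO 0, the 12 h dox library 1 and the 24 h one 3, while WT with RA reached 3317 and Wt1 KO with RA 39. In normalised CPM these are levels of 3.67, 0, 0.883, 0.882, 495 and 361. The untreated and dox libraries could not be ordered among themselves at this depth, and both RA libraries lay far above them.

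miR-100-5p, its near twin from the other locus, followed the same outline with a clearer difference between genotypes. In the same library order the counts were 16, 2, 0, 13, 3868 and 16, which correspond to levels of 14.7, 1.42, 0, 3.82, 578 and 148 normalised CPM. Untreated WT lay above each of the 3 untreated or dox-treated Wt1 KO libraries, which were not separable from their neighbours in the order of levels.

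miR-125b-5p, the guide arm shared by both loci, was the most abundant of the 5 in every library. Its counts, again in that order, were 534, 139, 97, 382, 32005 and 107. The levels were 490, 98.5, 85.7, 112, 4781 and 990 normalised CPM. WT with RA was highest, then Wt1 KO with RA, then untreated WT, and the intervals of neighbouring levels excluded equality down to that point. The 3 Wt1 KO libraries without RA formed the low end and neighbours among them did not differ beyond counting error.

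The 3p arm miR-125b-1-3p, which reports the chromosome 9 hairpin, had counts of 116, 10, 13, 21, 3712 and 12. Its levels were 106, 7.09, 11.5, 6.17, 554 and 111 normalised CPM, so that untreated WT and Wt1 KO with RA were indistinguishable by counting. The 3p arm of the chromosome 16 hairpin, miR-125b-2-3p, had 2, 5, 2, 9, 1734 and 28 reads in the same order of libraries. Its levels of 1.84, 3.54, 1.77 and 2.65 normalised CPM without RA did not differ between neighbours, and those of 259.0 and 259.2 in WT and Wt1 KO with RA were alike within an interval of the log2 ratio from -0.59 to 0.54.

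**Figure D1:**
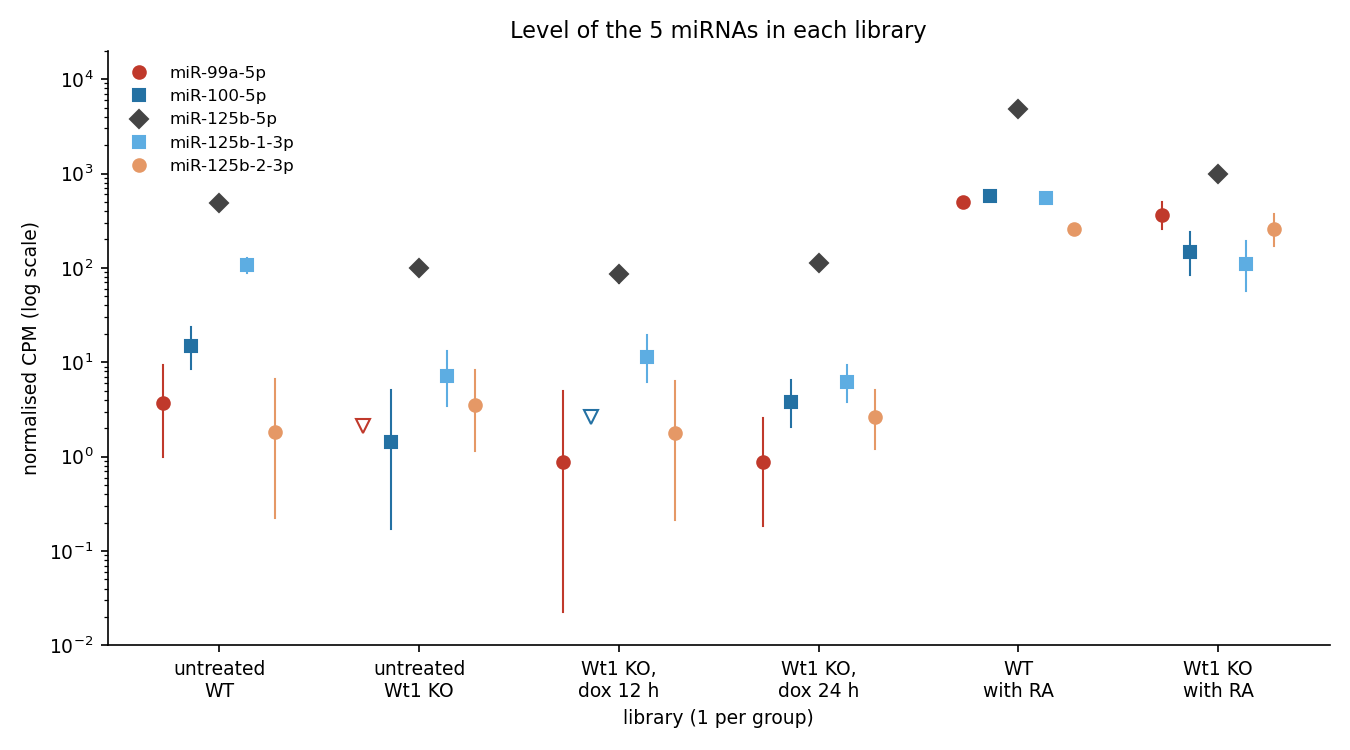
Level of each miRNA in each of the 6 libraries, in normalised CPM on a log axis. Filled symbols are single libraries, vertical lines are 95% Poisson intervals of the count, and open triangles mark a count of 0 at the level of 3 reads. miR-125b-5p is the highest symbol in every library, and in the RA libraries every miRNA is at 111 normalised CPM or more.

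In WT, the RA library was set against the untreated one to ask how these miRNAs change as the cells leave the stem cell state. All 5 were far more abundant with RA. The log2 ratio was 6.99 [5.72 to 8.95] for miR-99a-5p and 5.28 [4.60 to 6.11] for miR-100-5p. It was 3.29 [3.16 to 3.41] for miR-125b-5p, a 9.75-fold difference. Of the 3p arms, miR-125b-2-3p was at 6.98 [5.29 to 10.19] and miR-125b-1-3p at 2.38 [2.11 to 2.66]. Both chromosome 16 products thus had larger ratios than both chromosome 9 products, with intervals that overlap for miR-99a-5p, miR-125b-2-3p and miR-100-5p.

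A miRNA is called higher here where the log2 ratio reaches 1, or lower where it reaches -1, provided the interval excludes 0. All 5 members were called higher with RA in WT, where 22.5% of the 351 entries whose mean count reached 50 were. Their median log2 ratio was 5.28, beside 0.14 over all 351. WT with RA held between 95.6% and 98.8% of each member's reads over the 6 libraries, and over the other 5 libraries the mean count of miR-125b-5p alone reached 50. That the others were among the 351 at all therefore rests on the library in which they were high, and the count of 5 is no independent support.

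With RA in Wt1 KO the 5 miRNAs were again higher than in the untreated cells of the same genotype. miR-99a-5p, with 39 reads against 0, was at least 169.8-fold higher by the level of 3 reads in the untreated library, a bound that leaves out the counting error of the 39 reads. The exact interval of its log2 ratio started at 7.04. The log2 ratio was 6.50 [4.62 to 9.87] for miR-100-5p and 6.11 [4.80 to 7.92] for miR-125b-2-3p, both from a handful of untreated reads. miR-125b-5p was at 3.33 [2.95 to 3.70] and miR-125b-1-3p at 3.93 [2.63 to 5.34]. All 5 were called higher, against 23.4% of the 351 entries (23.1% were called lower), with a median of 6.11 (miR-99a-5p at its bound) beside -0.08 over all entries. With CPM of the total in place of TMM, all ratios of this comparison moved together by 0.70.

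Set side by side, the response of miR-125b-5p was not called different between the genotypes, and its size depended on the scaling. The difference of its log2 responses, Wt1 KO minus WT, was 0.04 [-0.34 to 0.43] with TMM, 0.64 [0.25 to 1.02] with library totals and 0.76 [0.37 to 1.14] with totals that leave out both stem cell clusters, miR-290 and miR-302. It was -0.97 [-1.44 to -0.50] with the bound on reads from WT with RA that is described further on. With TMM, miR-100-5p was at 1.23 [-1.01 to 3.46] and miR-125b-2-3p at -0.87 [-3.30 to 1.55]. miR-125b-1-3p was the 1 member called, with a larger response in Wt1 KO by 1.55 [0.31 to 2.79]. Of the 338 entries with reads in all 4 libraries, 22.2% were called higher and 15.4% lower. As a count, 1 call among so few members is near the share called higher. The log2 response of miR-125b-1-3p also had little to stand on. This miRNA started from 10 reads in untreated Wt1 KO, and the call was lost with no minimum count in the scaling, at 1.18 [-0.06 to 2.42]. miR-99a-5p has no value because untreated Wt1 KO had no read.

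**Figure D2:**
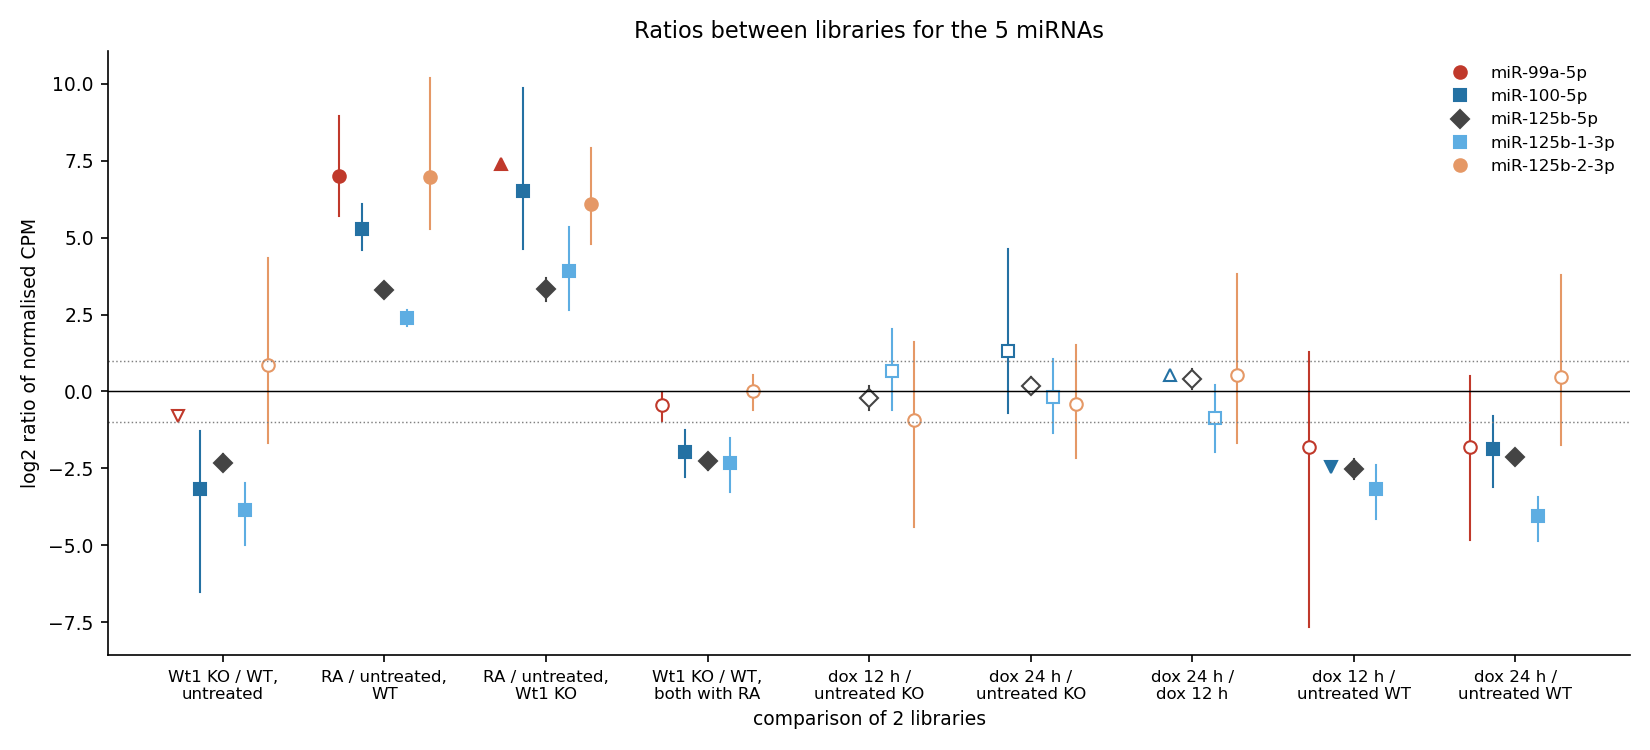
Log2 ratio of normalised CPM for each of the 9 comparisons between 2 libraries. Filled symbols pass the size rule, open symbols do not, triangles are bounds where a library had 0 reads, vertical lines are 95% counting intervals, dotted lines mark 1 and -1, and a missing symbol means that both counts were 3 or fewer. All symbols of both RA comparisons are filled and above 0, while those of dox against untreated Wt1 KO are open.

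Untreated Wt1 KO was compared with untreated WT to ask what differs where Wt1 is missing. The chromosome 9 products and the shared guide arm were lower in Wt1 KO. miR-125b-1-3p had a log2 ratio of -3.87 [-5.01 to -2.98], miR-100-5p stood at -3.19 [-6.54 to -1.28], and the guide arm miR-125b-5p at -2.31 [-2.59 to -2.04]. The chromosome 16 products were too rare to order by genotype. miR-125b-2-3p, from 5 reads against 2, was at 0.87 [-1.66 to 4.34], and miR-99a-5p had 0 reads against 4, with an interval that reached up to 0.23.

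In all, 3 of the 5 members were called lower in untreated Wt1 KO and 0 higher, against 15.4% and 12.3% of the 351 entries. With library totals in place of TMM miR-99a-5p was called lower as well, at a bound of -1.15, and it was so too when both stem cell clusters were left out of the totals, at -1.14. A miss of the rule at these counts does not show equal levels. Markers of fibroblasts and mesenchyme moved with this comparison: the 7 listed entries summed to 6.26% of the untreated WT reads but 1.26% of the untreated Wt1 KO reads, miR-214-3p had no read in untreated Wt1 KO, and 4 of the 5 listed entries with enough reads were called lower. The blood and endothelium sum was 913 normalised CPM in untreated WT against 3050, with 1 of 3 entries called higher, and 2 of 4 neural entries were called higher, the neural sum being 471 against 784. Their part in the result was not tested.

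With RA in both genotypes the same 3 miRNAs were lower in Wt1 KO, and here the chromosome 16 products had enough reads to be compared. miR-125b-5p was at -2.27 [-2.56 to -1.998], miR-125b-1-3p at -2.32 [-3.27 to -1.51] and miR-100-5p at -1.96 [-2.77 to -1.26]. miR-99a-5p was at -0.46 [-0.95 to -0.0028] and miR-125b-2-3p at 0.00 [-0.59 to 0.54], both short of the rule. The 3 called lower compare with 18.5% of the 351 entries, and 17.9% were called higher. miR-100-5p and miR-125b-1-3p were among the 351 only through WT with RA, where they were high. The count of 3 is therefore no independent support. This comparison shares no library with that of the untreated cells, but both set Wt1 KO cells against WT cells. A difference between the cells other than Wt1 could enter both, and this was not tested. Markers of the stem cell state also differed between the 2 RA libraries. All 13 miR-290 cluster entries with enough reads were called higher in Wt1 KO, with a median log2 ratio of 3.53. Their part in the result was not tested.

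Dox was used to induce Wt1 in Wt1 KO cells, so these libraries show whether the low levels changed within a day. None of the 5 was called after 12 h of dox against untreated Wt1 KO, where 4.27% of the entries were called higher and 8.83% lower, nor after 24 h, where 5.70% were higher and 3.70% lower. miR-99a-5p at both times and miR-100-5p at 12 h had too few reads for a ratio, so they could not be called. With so few members, a count of 0 is near those shares. miR-125b-5p was at -0.20 [-0.59 to 0.18] after 12 h and 0.19 [-0.09 to 0.48] after 24 h, so that both counting intervals lay within 2-fold. For miR-125b-1-3p the values were 0.68 [-0.61 to 2.05] and -0.19 [-1.35 to 1.05]. miR-100-5p had 13 reads after 24 h against 2 in untreated Wt1 KO, at 1.31 [-0.71 to 4.62], and 0 after 12 h. Between 24 h and 12 h, where 3.99% of the entries were called higher and 0.855% lower, miR-125b-5p was at 0.39 [0.06 to 0.73] and no member passed the rule. miR-99a-5p again had too few reads for a ratio.

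Against untreated WT, the same 3 miRNAs were lower in both dox libraries. After 24 h miR-125b-5p was at -2.12 [-2.32 to -1.93], miR-125b-1-3p at -4.06 [-4.85 to -3.43] and miR-100-5p at -1.88 [-3.12 to -0.79]. After 12 h the first 2 were at -2.51 [-2.84 to -2.20] and -3.19 [-4.16 to -2.38], and miR-100-5p, with no read, was at least 5.54-fold lower by the level of 3 reads, with an exact interval of the log2 ratio that ended at -2.002. At both times 3 of 5 members were called lower, against 17.7% of the entries at 12 h (12.3% were higher) and 14.5% at 24 h (11.1% were higher). These comparisons share the untreated WT library with that of untreated Wt1 KO against WT. Fibroblast and mesenchyme markers were lower here too, 3 of 5 at 12 h and 4 of 5 at 24 h (1 was higher at 24 h), with sums of 2.85% and 2.58% of the reads and miR-214-3p at 0 in both dox libraries. Of the 3 blood and endothelium markers with enough reads, 2 were called higher at each time, with miR-223-3p and miR-451a at 0. Of the 13 miR-290 cluster entries with enough reads, 5 were called higher at 12 h and 2 at 24 h. At each time 1 of 4 neural entries was called higher. Of the 2 muscle and mesoderm entries, 1 was called higher and 1 lower at each time. The part of any of these lists in the result was not tested.

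Within a library the balance between mature products of the 2 loci can be read without any scaling, from the pairs of near-identical or paralogous products. Products of 1 locus did not keep a fixed proportion, as given below. A share of reads therefore need not equal the share of the locus. In WT with RA the chromosome 9 product was the larger of each pair, and in Wt1 KO with RA the chromosome 16 product was. miR-99a-5p made up 46.2% [45.0 to 47.3] of the 7185 reads of miR-99a-5p and miR-100-5p in WT with RA, and 70.9% [57.1 to 82.4] of 55 reads in Wt1 KO with RA. miR-125b-2-3p made up 31.8% [30.6 to 33.1] of the 5446 reads of the 3p arms in WT with RA and 70.0% [53.5 to 83.4] of 40 reads in Wt1 KO with RA. The ratio of chromosome 16 to chromosome 9 reads was thus 2.84 [1.55 to 5.46] times larger in Wt1 KO for the first pair and 4.99 [2.45 to 10.8] times larger for the second.

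Without RA only the 3p arms had enough reads in both genotypes, and the chromosome 16 part was again larger in Wt1 KO, by a ratio of 27.3 [3.90 to 321.3]. In untreated WT miR-125b-2-3p held 1.69% [0.206 to 5.99] of 118 3p reads, against 33.3% [11.8 to 61.6] of 15 in untreated Wt1 KO and 30.0% [14.7 to 49.4] of 30 after 24 h of dox. The 12 h dox library had 13.3% [1.66 to 40.5] of 15. For miR-99a-5p and miR-100-5p the shares were 20% [5.73 to 43.7] of 20 reads in untreated WT and 18.8% [4.05 to 45.6] of 16 after 24 h of dox, and the other 2 libraries without RA had 2 reads or fewer in all. Within WT, the share of chromosome 16 was larger with RA, the ratio of the 3p arms being 27.1 [7.32 to 226.6] times and that of miR-99a-5p to miR-100-5p 3.43 [1.10 to 14.1] times the untreated one.

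**Figure D3:**
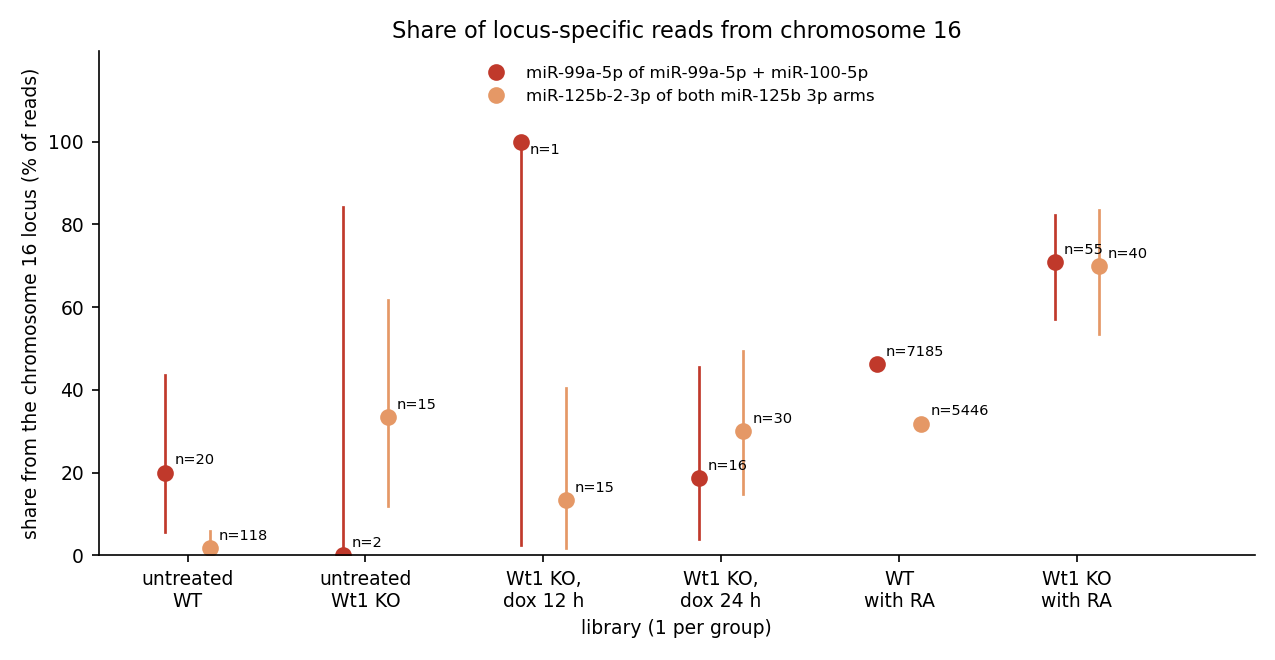
Share of reads from the chromosome 16 locus within each of 2 pairs, in percent, for each library. Points are single libraries, vertical lines are exact 95% binomial intervals, and n is the number of reads of the pair. In Wt1 KO with RA both pairs are near 70%, above the 46.2% and 31.8% of WT with RA.

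The 2 products of the chromosome 9 locus did not keep a fixed proportion. miR-100-5p had 0.138 reads per read of miR-125b-1-3p in WT before RA and 1.04 with it, a ratio 7.55 [4.45 to 13.7] times larger with RA. For the chromosome 16 pair, miR-99a-5p to miR-125b-2-3p, the same ratio was 0.956 [0.0864 to 6.68], too wide to compare with it. Between the genotypes with RA neither pair differed beyond counting error, the ratio in Wt1 KO being 1.28 [0.567 to 2.97] times that in WT on chromosome 9 and 0.728 [0.435 to 1.23] times on chromosome 16.

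The 3p arms are the strands usually discarded when the guide is loaded. They made up 18.1% [15.2 to 21.3] of all miR-125b reads in untreated WT and 14.5% [14.2 to 14.9] in WT with RA. In the Wt1 KO libraries without RA the shares were 9.74% [5.55 to 15.6] untreated, 13.4% [7.69 to 21.1] at the 12 h point of dox and 7.28% [4.97 to 10.2] at 24 h. Wt1 KO with RA had the highest share, 27.2% [20.2 to 35.2] of 147 reads. The 3p arms of Mir99a and Mir100 were rarer still: miR-99a-3p had 79 reads in WT with RA, 1 in Wt1 KO with RA and 0 elsewhere, and miR-100-3p had 3 reads in WT with RA and 0 in the other 5 libraries.

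The third cluster of the family, on chromosome 17, holds miR-99b, let-7e and miR-125a. Of these, miR-99b-5p and miR-125a-5p had far more reads than any member in every library. miR-99b-5p had 35563 reads in untreated WT, against 20 of miR-99a-5p and miR-100-5p together. These 2 made up 0.0562% [0.0343 to 0.0868] of the reads of the 3 guide arms with the miR-99/100 seed in untreated WT and 2.09% [2.05 to 2.14] with RA. For Wt1 KO the shares were 0.0124% [0.00150 to 0.0448] untreated and 4.11% [3.11 to 5.32] with RA. The part of miR-125b-5p in miR-125a-5p and miR-125b-5p was 2.22% [2.03 to 2.41] in WT untreated and 13.9% [13.7 to 14.0] with RA, and for Wt1 KO 1.44% [1.21 to 1.69] and 10.5% [8.69 to 12.5]. The minor paralogs therefore gained on the major ones with RA in both genotypes by more than counting error, and stayed the smaller part.

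The major paralogs did not pass the rule with RA. miR-99b-5p was at 0.62 [0.60 to 0.64] in WT and 0.06 [-0.03 to 0.14] in Wt1 KO, and miR-125a-5p at 0.46 [0.44 to 0.48] and 0.32 [0.22 to 0.42]. They were lower in Wt1 KO, as the 3 members above were: miR-99b-5p was at -1.51 [-1.54 to -1.49] untreated and -2.08 [-2.16 to -2.0002] with RA, and miR-125a-5p at -1.68 [-1.71 to -1.64] and -1.82 [-1.91 to -1.72]. Of the 5 chromosome 17 entries with enough reads, 5 were called lower in untreated Wt1 KO and 3 in Wt1 KO with RA, beside 15.4% and 18.5% of all entries. With RA against no treatment 1 of the 5 was called higher in WT and 2 in Wt1 KO, beside 22.5% and 23.4% of all entries, so that the count in WT was near the background. Under dox against untreated Wt1 KO miR-99b-5p was the 1 entry of the 5 called. It was lower after 12 h, at -1.46 [-1.50 to -1.41], and after 24 h, at -1.24 [-1.27 to -1.21]. Of all entries 8.83% and 3.70% were called lower there. Between 24 h and 12 h let-7e-5p was the 1 called, higher at 24 h, at 1.08 [0.70 to 1.49], beside 3.99% of all entries.

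The let-7 genes inside the 2 loci were read through let-7c-5p and let-7a-5p, which also arise from hairpins elsewhere. With RA in WT let-7c-5p was at 2.69 [2.58 to 2.80] and let-7a-5p at 1.93 [1.69 to 2.19], and in Wt1 KO they were at 1.36 [1.16 to 1.56] and 1.88 [1.33 to 2.41], so both were called higher in both genotypes. With TMM the response of let-7c-5p was called smaller in Wt1 KO, by a difference of -1.33 [-1.55 to -1.11]. That of let-7a-5p was not called different, at -0.05 [-0.62 to 0.51]. Neither was called in untreated Wt1 KO against WT, at 0.55 [0.42 to 0.69] and -0.40 [-0.75 to -0.06]. After 12 h of dox both were called lower than in untreated Wt1 KO, let-7c-5p at -1.70 [-1.88 to -1.52] and let-7a-5p at -1.20 [-1.71 to -0.72], beside 8.83% of all entries. After 24 h neither was called, at -0.64 [-0.74 to -0.54] and -0.13 [-0.43 to 0.17]. Both were called higher at 24 h than at 12 h, at 1.06 [0.89 to 1.23] and 1.07 [0.63 to 1.54], beside 3.99% of all entries. miR-6240, listed as a sign of RNA quality, was called higher at 12 h than in untreated Wt1 KO, at 1.33, and its part in these values was not tested. The arms that would report these hairpins directly had almost no reads, 4 of let-7c-1-3p in WT with RA as the highest count and none of let-7a-2-3p in any library. Of the 7 let-7 family entries with enough reads, 6 were called higher with RA in WT and 4 in Wt1 KO, beside 22.5% and 23.4% of all entries. Their median log2 ratios were 1.93 and 1.36, beside 0.14 and -0.08 over all entries. In the difference of responses, Wt1 KO minus WT, 2 of the 7 were called lower and 1 higher, beside 15.4% and 22.2% of the entries with a value.

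**Figure D4:**
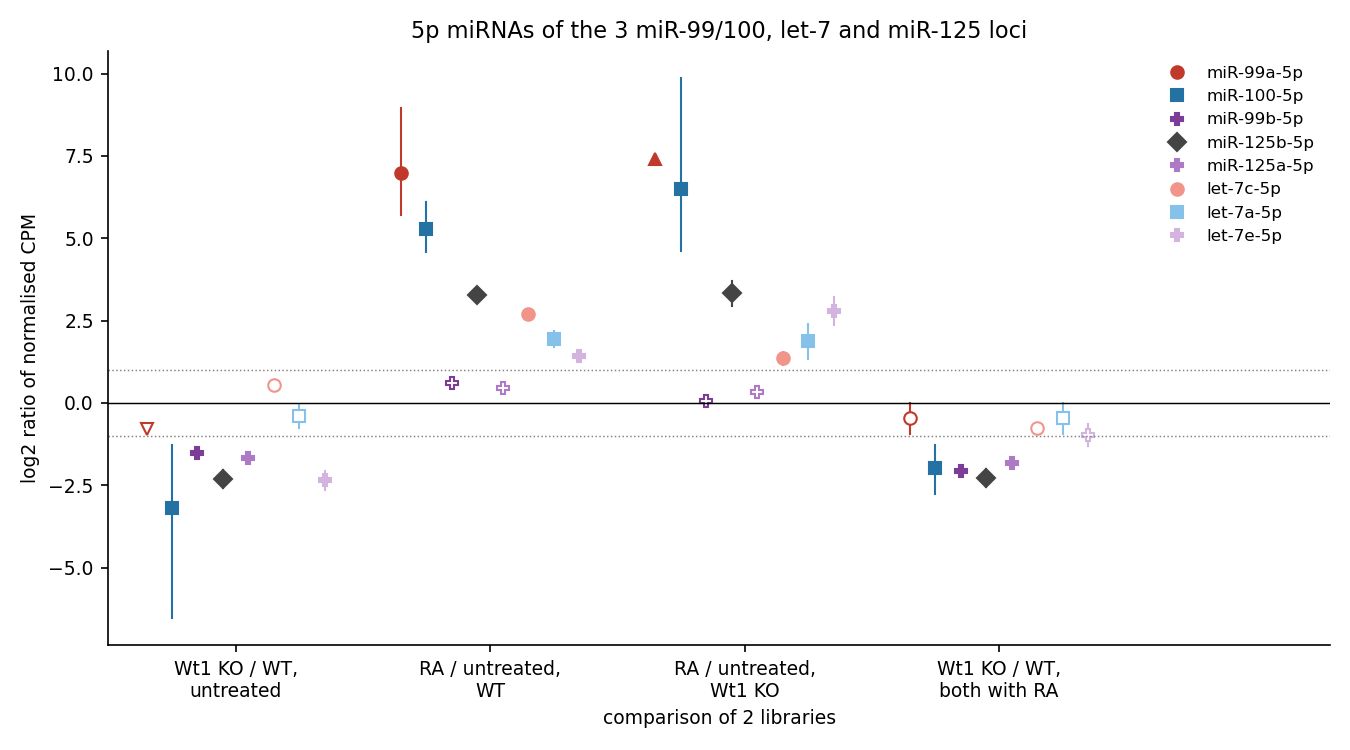
Log2 ratios of the guide arms from the 3 loci in 4 comparisons between 2 libraries, with 95% counting intervals; filled symbols pass the size rule and triangles are bounds where a library had 0 reads. With RA, miR-99a-5p, miR-100-5p and miR-125b-5p stand above miR-99b-5p and miR-125a-5p, which stay between 0 and 1.

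The library of Wt1 KO with RA was the shallowest and stands apart in ways that touch its values here. Whether reads of the deepest library, WT with RA, entered it was not tested. miR-335-3p, chosen because its count in Wt1 KO with RA was low beside that in WT with RA, was used for a bound. A bound from a miRNA picked for a low value in these same libraries can itself be too low. miR-335-3p had 0.858 [0.370 to 1.69] reads in Wt1 KO with RA per 1000 in WT with RA. The members had more: 16.1 [10.7 to 23.4] per 1000 for miR-125b-2-3p, 11.8 [8.35 to 16.1] for miR-99a-5p, 4.14 [2.36 to 6.73] for miR-100-5p, 3.34 [2.74 to 4.04] for miR-125b-5p and 3.23 [1.67 to 5.65] for miR-125b-1-3p. All lay above the upper bound of miR-335-3p by their estimates, and miR-125b-1-3p did not by its lower bound.

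That upper bound of WT reads was then set aside, taken as fixed, so the intervals leave out its own uncertainty and the choice of miR-335-3p for a low value. This left 33 of 39 reads of miR-99a-5p, 25 of 28 of miR-125b-2-3p and 9 of 16 of miR-100-5p. For miR-125b-5p 53 of 107 were left, and for miR-125b-1-3p 6 of 12. The 5 members were still called higher with RA in Wt1 KO, miR-125b-5p at 2.31 [1.83 to 2.78], and the 3 called lower against WT with RA remained the same 3, miR-125b-5p at -3.28 [-3.70 to -2.90]. The larger response of miR-125b-1-3p in Wt1 KO was no longer called, at 0.55 [-0.93 to 2.04], and the difference in response of miR-125b-5p went from 0.04 to -0.97 [-1.44 to -0.50]. The chromosome 16 share of the locus-specific reads became 79.5% [68.4 to 88.0] of 73 reads, from 70.5% [60.3 to 79.4] of 95. At this bound it was above the 40.0% [39.1 to 40.8] of WT with RA. Larger bounds were not tried.

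**Figure D5:**
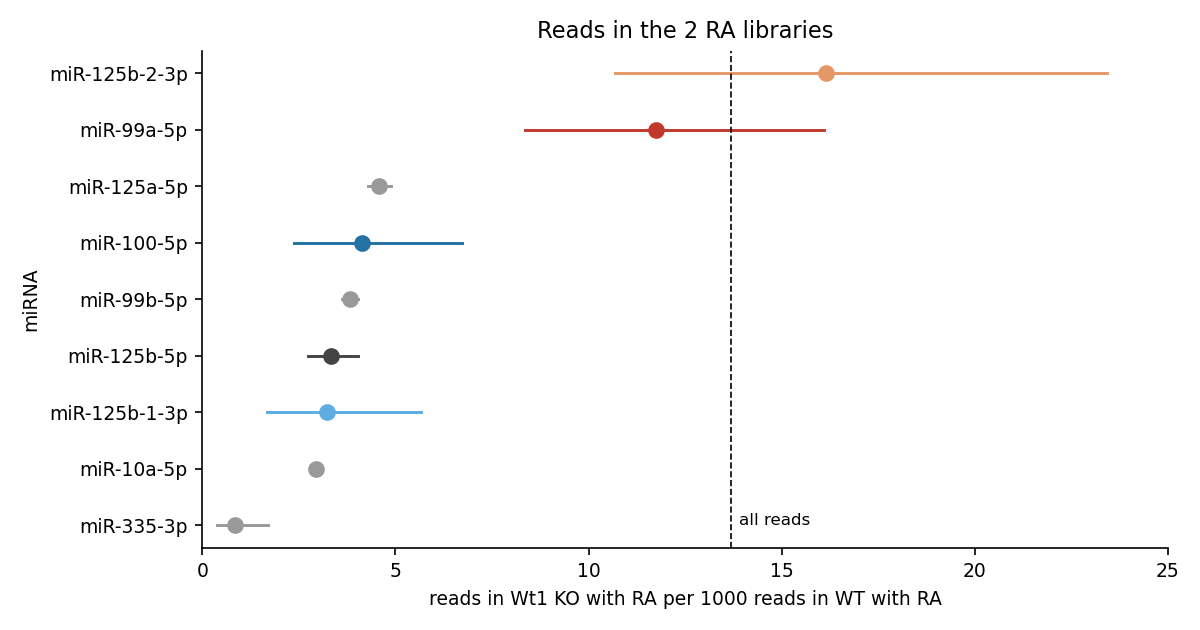
Reads in Wt1 KO with RA per 1000 reads in WT with RA for the 5 miRNAs (colours), for miR-99b-5p, miR-125a-5p and miR-10a-5p, and for miR-335-3p (grey), with exact 95% intervals. The dashed line is the same ratio for all reads, 13.7; the chromosome 16 products miR-125b-2-3p and miR-99a-5p have intervals that include it, and the other members lie below.

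Other signs also set Wt1 KO with RA apart, while the endoderm and blood sums below set both RA libraries apart from the rest. The entry miR-6240 took 0.265% of its reads against at most 0.0713% in the other 5 libraries. The muscle and mesoderm markers summed to 3665 normalised CPM there against 329 to 886 elsewhere, with miR-1a-3p and miR-206-3p at 0 in every library and miR-145a-5p at 0 in this one. The neural markers summed to 1148 normalised CPM against 471 to 784, with miR-9-3p and miR-219a-5p at 0. Of the 4 neural entries with enough reads, 1 was called higher and 1 lower than in untreated Wt1 KO, beside 23.4% and 23.1% of all entries. The 2 endoderm markers summed to 167 normalised CPM there and 251 in WT with RA, against 60.2 to 92.0 without RA. The 6 blood and endothelium markers summed to 315 and 135 normalised CPM in Wt1 KO and WT with RA, against 913 to 4278 without RA, with miR-223-3p and miR-451a at 0 in all libraries. The part of these in the members' values was not tested.

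Other miRNAs had a similar course over the 6 libraries. Outside the 5 members, the 3 entries with the highest Pearson r of log2 normalised CPM were miR-3099-3p (0.995), miR-301a-3p (0.990) and miR-218-5p (0.977) for miR-99a-5p, and miR-483-3p (0.987), let-7a-5p (0.985) and miR-483-5p (0.985) for miR-100-5p. For miR-125b-5p they were miR-203-3p (0.996), miR-351-5p (0.983) and miR-181a-5p (0.973). miR-351-5p, which has the miR-125 seed, had levels of 1579, 826, 864, 947, 6658 and 2120 normalised CPM in the library order used above, the order of miR-125b-5p except among the Wt1 KO libraries without RA. The points share libraries, depth and scaling. For miR-99a-5p and miR-100-5p, with 2 RA libraries well above 4 others, the split between them sets most of r. For miR-125b-5p WT with RA stood furthest out, at 4781 normalised CPM. Wt1 KO with RA, at 990, was nearer to untreated WT, at 490. Its first match, miR-203-3p, had 3 reads in Wt1 KO with RA, the floor. Without Wt1 KO with RA, over 5 libraries, miR-3099-3p (0.997) and miR-203-3p (0.995) stayed first for miR-99a-5p and miR-125b-5p, and miR-298-5p (0.999) became first for miR-100-5p. Among the members r ran from 0.75, between the 3p arms, to 0.97, between miR-125b-5p and miR-125b-1-3p.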

How the data were processed

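Small RNA was counted in 6 libraries, 1 per group. Libraries were made from 1 µg of total RNA per the labels' protocols, and the gel bands of miRNA inserts and of longer small RNAs were pooled. The deposited tables give, per the file headers, the count of reads per mature miRNA that match 1 entry (unique matches) or several (multi-matches); the labels and headers name no aligner, mismatch limit, miRBase version or genome build. Unique-match counts were used as deposited. Coordinates and sequences come from RefSeq, GRCm38.p6.

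Counts were scaled in edgeR 4.0.16 (R 4.3.3) by TMM on the 351 entries whose mean count reached 50. Log2 ratios used a prior count of 0.5, scaled to library size. Ratio intervals are 95% exact conditional binomial, share intervals Clopper-Pearson, level intervals Poisson, and differences of responses use the delta method. Calls and the coverage of the ratio intervals were tested on simulated, independent Poisson counts. The ratio intervals assume such counts, so the test does not cover reads that are not independent. With 1 library per group, no p-value was computed. A library without a read gave a bound from 3 counts, and no fold was given when both counts were 3 or fewer. Named miRNAs are the 5 members, the lists of hairpin neighbours, paralogs, let-7 and cell type markers, and the 3 entries most alike in course; miR-335-3p and miR-10a-5p were added for the RA libraries. Members and lists were chosen with earlier results of these data known. Alternatives were CPM of the total, the same leaving out both stem cell clusters (miR-290, miR-302), DESeq2 1.42.0 size factors, TMM without Wt1 KO with RA, a minimum of 10, 200 or none, a prior of 2, and multi-matches added. After seeing the data, the reads of Wt1 KO with RA were also reduced by a bound on reads from WT with RA.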

Additional observations from a re-analysis of the deposited data

How the results depend on the processing

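Of the 23 ratios of members that passed the size rule, 205 of 207 values under the alternatives kept their call and 0 changed sign. Both losses concern the larger RA response of miR-125b-1-3p in Wt1 KO, so that the count of members called in that difference fell from 1 to 0 with no minimum count and with the bound on WT reads set aside. Scaling as CPM of the total, or of the total less both stem cell clusters, added miR-99a-5p to the members called lower in untreated Wt1 KO (4 in place of 3). The counts in the other comparisons were the same under every alternative that was run. TMM without Wt1 KO with RA could not be applied to comparisons that use that library. The other scalings, minimum counts included, moved all ratios of a comparison together by between -0.42 (no minimum count) and 0.70 (CPM of the total) on the log2 scale; both ends are in comparisons with the shallow library of Wt1 KO with RA. Multi-matches changed no member's counts. With 1 library per group no library could be left out of a group. Depth limits miR-99a-5p, miR-100-5p and miR-125b-2-3p most, since they had at most 16 reads in any library without RA.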
